A study of Homo sapiens with 6 samples.

Results

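The lysosomal genes described here are 44 hydrolases, activator proteins and membrane proteins of the lysosome. They were chosen by name, with earlier results of these data known, and read from the deposited gene counts of NB4 cells. Of these, 42 were listed in at least 1 of the deposited tables, out of 13289 genes listed in all. For comparisons across treatments 40 could be used, since LGMN and ACP5 were listed only in the ATRA table and NEU1 and CTSL in neither. All 40 passed the filter on low counts. NB4 is an established cell line from a human acute promyelocytic leukemia; it carries the PML-RARA fusion and matures along the granulocytic path when given all-trans retinoic acid (ATRA). Every library came from NB4 cells carrying a hairpin construct: a control construct, labelled as scrambled, or hairpin 1 or hairpin 2 against SMARCD2, a subunit of the SWI/SNF (BAF) chromatin remodelling complex. Each construct was given the vehicle DMSO (labelled undifferentiated) or 1 µM ATRA (labelled differentiated), so that there were 6 libraries: 1 control and 2 knockdown libraries in each treatment. How long ATRA was given is not stated in the labels. The model is 1 cell line with 1 library per construct and treatment, and nothing in the labels says that libraries came from separate cultures.

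Lysosomes are acidic organelles in which hydrolases break down proteins, glycans, sulfated sugars and lipids delivered by endocytosis, phagocytosis and autophagy. Most of the enzymes reach the lysosome by the mannose-6-phosphate receptors, the V-ATPase pumps in protons, and LAMP proteins and channels such as MCOLN1 form the limiting membrane. Transcription of many of these genes is known to be driven by TFEB and the related factors TFE3 and MITF, which bind an E-box-like site called the CLEAR element. The azurophil granules made in promyelocytes also hold lysosomal enzymes, which are thus part of the granule content of the neutrophil lineage.

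Library totals ran from 29291209 to 58099733 counts, each summed over 2 runs. Levels are in CPM, counts scaled to a common library size with edgeR's TMM factors. Adjusted p-values come from edgeR's quasi-likelihood test, adjusted by Benjamini-Hochberg over 12301 genes, and 0.05 was the threshold. SMARCD2 itself stood at 95.5 CPM in the control against 39.0 and 25.7 in hairpins 1 and 2 in DMSO, and at 122 against 64.2 and 35.6 in ATRA, so each knockdown library was below its control. With 1 control library per treatment, SMARCD2 itself did not pass edgeR's test of knockdown. Its log2 difference was -1.55 in DMSO (edgeR adjusted p = 0.39) and -1.29 in ATRA (edgeR adjusted p = 0.32). A gene that misses edgeR's test of knockdown is thus not shown to be unaffected. The authors' deposited tables do call SMARCD2 lower, as given below. Of the neutrophil granule genes looked up as markers, MPO stood at 9866 to 10044 CPM in DMSO, AZU1 at 154 to 204 and MMP9 at 152 to 183. CTSG stood at 62.3 to 74.5 CPM there and PRTN3 at 37.0 to 75.3. BPI was at or below 1.37 CPM and ELANE at or below 0.615 CPM, and LTF, CAMP, MMP8, CEACAM8 and LCN2 were not listed for DMSO.

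Under ATRA the lysosomal genes rose almost as a group. Over the 3 constructs, 36 of the 40 measured members were higher with ATRA and 2 were lower, in edgeR's test at adjusted p under 0.05. Over all genes tested, 36.2% were called higher and 37.8% lower in the same comparison. The median log2 fold change of the members was 0.94, beside -0.01 for all genes tested. A rise of at least 2-fold was called for 19 members and a fall of at least 2-fold for 0, where 11.9% and 9.28% of all genes tested were called. The 3 ATRA libraries lay above all 3 DMSO libraries for 35 members and below them for 2 (CTSH and NAGLU), and the groups overlapped for MAN2B1, PPT1 and ARSB. Over all genes, 37.6% lay wholly above and 39.5% wholly below. The median rise was close in each construct, at 0.88 in the control, 0.92 in hairpin 1 and 0.95 in hairpin 2. In bulk RNA, more transcript per cell and more cells of a kind that makes it cannot be told apart.

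**Figure D1:**
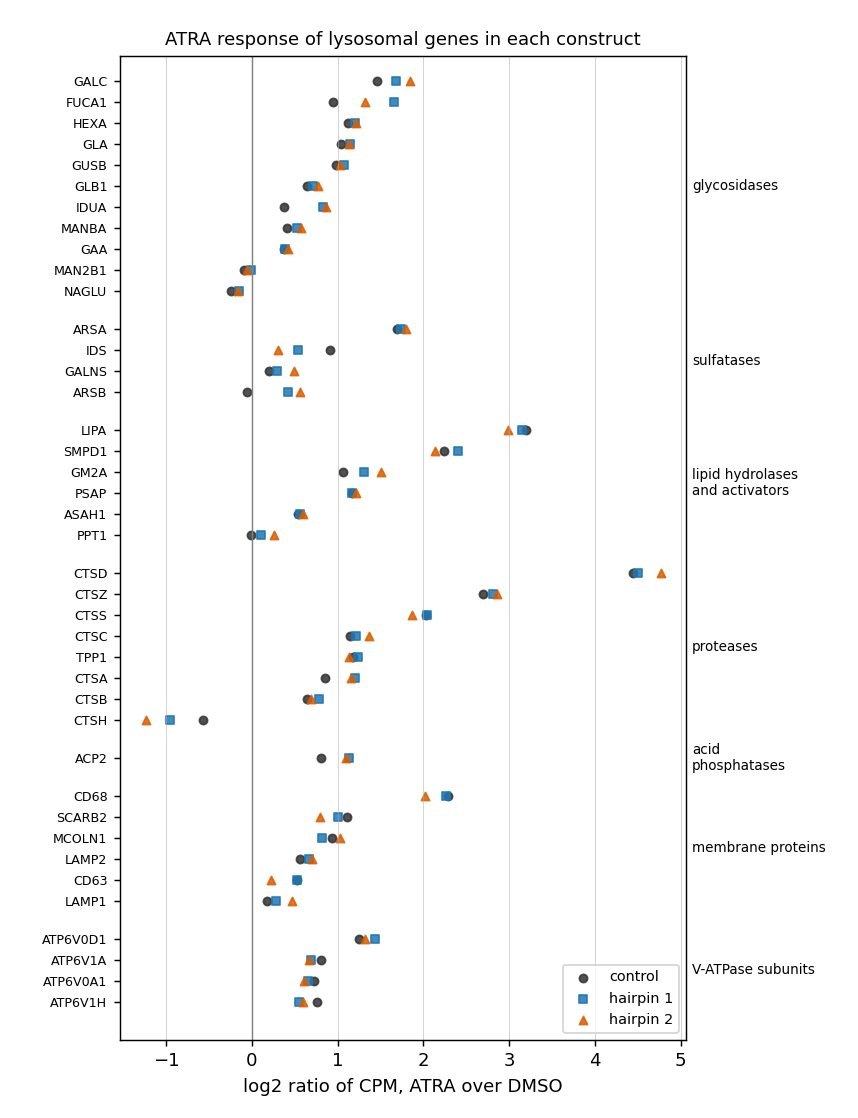
Log2 ratio of CPM in ATRA over DMSO for the 40 measured lysosomal genes (x axis), grouped by role (right) and ordered by their fitted response (y axis), with 1 point per construct. Nearly all points lie right of 0, CTSD stands farthest out near 4.56, and CTSH is the member farthest to the left in each construct.

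Summed over the 40 members in both tables, the lysosomal genes took 3254 to 3294 CPM in the DMSO libraries and 8637 to 9095 CPM in the ATRA libraries. The mean sum thus rose 2.73-fold. CTSD alone made up 2.91% of that sum in DMSO and 25.2% in ATRA, and without it the sum rose 2.11-fold.

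The proteases held the largest single response. Of 8 measured, 7 rose, 6 of them at least 2-fold, and CTSH fell, with a median log2 fold change of 1.21. CTSD, the main aspartic protease of the lysosome, stood at 99.8 CPM in the control, 104 in hairpin 1 and 82.4 in hairpin 2 in DMSO. In ATRA it stood at 2167, 2350 and 2243 CPM. The 3 ATRA libraries lay more than an order of magnitude above the DMSO libraries, a mean of 2253 ± 91.9 against 95.3 ± 11.4 CPM (SD, n = 3). The fitted log2 fold change was 4.56 ± 0.10 (SE; edgeR adjusted p = 4.3e-09). CTSZ, a carboxypeptidase of the cathepsin family, rose from 49.3, 43.7 and 45.3 CPM (control, hairpin 1, hairpin 2) to 320, 306 and 330 CPM, a log2 fold change of 2.79 ± 0.06. CTSS, a cysteine protease known for its part in antigen presentation, rose from 65.1, 72.1 and 89.0 to 265, 296 and 325 CPM. In both treatments CTSS was lowest in the control and highest in hairpin 2. CTSC, the dipeptidyl peptidase that activates the serine proteases of neutrophil granules, rose by 1.24 ± 0.06 on the log2 scale. TPP1 (1.19 ± 0.04), CTSA (1.07 ± 0.07) and CTSB (0.70 ± 0.05) rose as well.

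CTSH, an aminopeptidase of the cathepsin family, went the other way. It stood at 99.2, 99.3 and 129 CPM in DMSO and at 66.9, 51.3 and 54.9 CPM in ATRA. All 3 ATRA libraries were below all 3 DMSO libraries, and the fall was smaller in the control (log2 ratio -0.57) than in hairpin 1 (-0.95) and hairpin 2 (-1.24). The fitted log2 fold change was -0.93 ± 0.13 (edgeR adjusted p = 0.00019), the larger of the 2 falls among the measured members. LGMN, an asparaginyl endopeptidase listed in the ATRA table only, was at 0.577, 0.509 and 0.224 CPM there, from 17, 26 and 10 counts.

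Among lipid hydrolases and activator proteins 5 of 6 rose, 4 of them at least 2-fold, with a median of 1.24. LIPA, the acid lipase that frees cholesterol and fatty acids from lipoprotein lipids, went from 91.9, 104 and 116 CPM to 840, 925 and 920 CPM. The groups were far apart, with a log2 fold change of 3.11 ± 0.06 (edgeR adjusted p = 2.6e-09). SMPD1, the acid sphingomyelinase, was scarce in DMSO at 4.35, 4.13 and 3.94 CPM and reached 20.6, 21.9 and 17.4 CPM in ATRA. PSAP, whose product is cut into the saposins that present sphingolipids to their hydrolases, rose from 458, 435 and 428 to 1032, 974 and 993 CPM. GM2A, the activator protein for ganglioside breakdown by hexosaminidase, rose from 26.4, 27.5 and 29.9 to 55.1, 67.9 and 84.8 CPM. The constructs were close in DMSO for GM2A and spread in ATRA, with the control lowest and hairpin 2 highest. ASAH1, the acid ceramidase, rose by 0.57 ± 0.05. PPT1, which removes palmitate from proteins, did not pass the test at 0.12 ± 0.06 (edgeR adjusted p = 0.084), and 27.3% of its annotated exon bases overlap CAP1 on the opposite strand.

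Of the 11 glycosidases measured, 9 rose and NAGLU fell, with a median of 0.71 and 5 members at least 2-fold higher. GALC, which removes galactose from myelin-type lipids, rose from 9.22, 7.60 and 7.20 to 25.4, 24.3 and 25.8 CPM, a log2 fold change of 1.67 ± 0.09. FUCA1, an α-fucosidase, rose from 13.05, 10.5 and 11.1 to 25.1, 33.2 and 27.8 CPM (1.32 ± 0.13). HEXA, the α subunit of β-hexosaminidase, went from 89.8, 91.7 and 89.9 to 195, 210 and 209 CPM. The DMSO values of HEXA differed by less than 2 CPM, and its log2 fold change was 1.18 ± 0.04. GLA, the α-galactosidase, rose by 1.11 ± 0.06 and GUSB, the β-glucuronidase, by 1.02 ± 0.04. Smaller rises were called for GLB1, the β-galactosidase (0.71 ± 0.05), IDUA, which cuts iduronic acid from glycosaminoglycans (0.70 ± 0.10), MANBA, the β-mannosidase (0.51 ± 0.05), and GAA, which breaks down glycogen (0.40 ± 0.05). MAN2B1, the α-mannosidase, stood at 193, 188 and 180 CPM in DMSO and 180, 186 and 173 CPM in ATRA. These ranges overlap, and the log2 difference of -0.05 had a 95% interval of -0.16 to 0.05. NAGLU, which acts on heparan sulfate, stood at 23.5, 24.7 and 25.9 CPM in DMSO and 19.9, 22.3 and 23.1 in ATRA, a log2 fold change of -0.18 ± 0.06 (edgeR adjusted p = 0.028). That call was lost in 4 of the 6 fits that left out a library. Without the control in DMSO it stood at -0.16, without hairpin 2 in DMSO at -0.17, without the control in ATRA at -0.16 and without hairpin 1 in ATRA at -0.18.

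All 4 sulfatases rose, with a median of 0.45. ARSA, the arylsulfatase that acts on sulfatide, rose from 12.8, 13.8 and 12.7 to 41.1, 46.0 and 44.3 CPM, a log2 fold change of 1.74 ± 0.06. IDS, the iduronate sulfatase, stood at 35.7, 38.5 and 53.4 CPM in DMSO and 67.1, 55.7 and 65.8 CPM in ATRA, so that its rise was largest in the control and smallest in hairpin 2. GALNS, which acts on keratan sulfate, rose by 0.33 ± 0.06. ARSB, which acts on dermatan sulfate, stood at 49.8 CPM in the control in DMSO and 47.7 in ATRA. In hairpin 1 ARSB went from 44.9 to 60.0 CPM and in hairpin 2 from 43.4 to 64.0 CPM. Its mean log2 fold change of 0.32 ± 0.10 (edgeR adjusted p = 0.022) thus rests on the knockdown libraries. Leaving out any of the 4 knockdown libraries ended the call: the value was 0.28 without hairpin 1 and 0.25 without hairpin 2 in DMSO, and 0.29 and 0.24 without them in ATRA.

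The acid phosphatase ACP2 rose from 12.7, 9.77 and 11.3 to 22.3, 21.4 and 24.1 CPM (1.02 ± 0.10). ACP5, the tartrate-resistant acid phosphatase of osteoclasts and macrophages, was listed in the ATRA table only, at 0.645, 0.450 and 0.828 CPM.

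All 6 membrane proteins rose, with a median of 0.78. CD68, a heavily glycosylated protein of late endosomes widely used as a macrophage marker, went from 16.9, 16.4 and 19.2 to 82.4, 78.8 and 77.8 CPM. CD68 was the only membrane protein to rise at least 2-fold (2.18 ± 0.07). SCARB2, the receptor that carries glucocerebrosidase to lysosomes, fell just short of 2-fold at 0.97 ± 0.06. MCOLN1, the calcium channel of the lysosomal membrane, rose from 9.51, 9.80 and 8.43 to 18.1, 17.3 and 17.2 CPM (0.92 ± 0.09). The abundant membrane proteins rose less: LAMP2 by 0.64 ± 0.05, the tetraspanin CD63 by 0.42 ± 0.07 and LAMP1 by 0.31 ± 0.06. LAMP1 stood at 186, 185 and 176 CPM in DMSO and 210, 226 and 242 CPM in ATRA, without overlap.

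The 4 V-ATPase subunits among the members also rose. ATP6V0D1, the d subunit of the membrane sector, rose most, from 43.3, 41.4 and 47.9 to 103, 111 and 119 CPM (1.33 ± 0.07). ATP6V1A, the catalytic subunit, rose by 0.72 ± 0.05, ATP6V0A1 by 0.66 ± 0.05 and ATP6V1H by 0.63 ± 0.06, in each case with all ATRA libraries above all DMSO libraries.

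**Figure D2:**
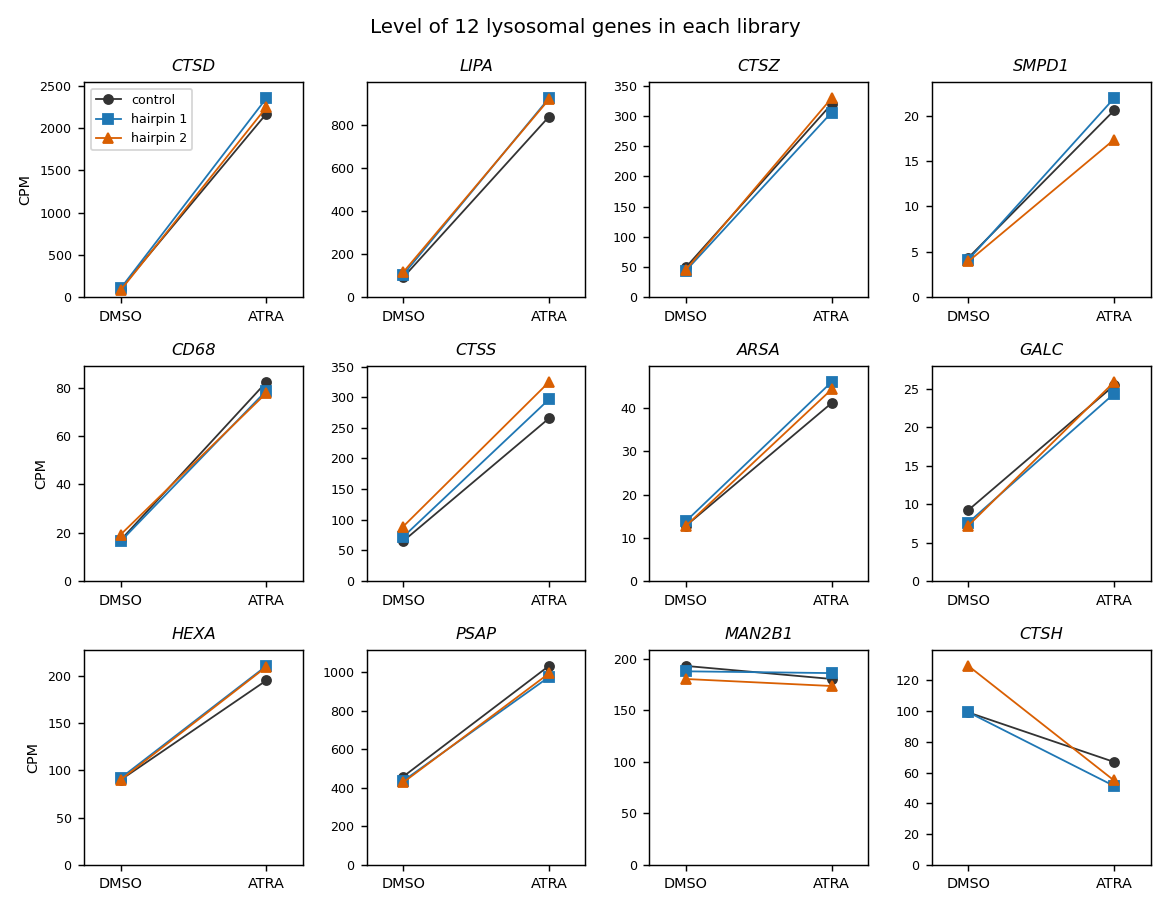
Level of 12 lysosomal genes in CPM (y axis, linear from 0) in DMSO and ATRA (x axis), with 1 line per construct joining its 2 libraries. For CTSD, LIPA and CTSZ the DMSO libraries lie close together far below the ATRA libraries, MAN2B1 is level, and CTSH falls in every construct.

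Scaling the libraries by total counts in place of TMM moved the median of all genes under ATRA to -0.14. With it, 35 members were higher and 3 lower, and over all genes 3637 were called higher and 5722 lower, beside 4450 and 4650 with TMM. The members that changed call or sign with that scaling were MAN2B1, called lower at -0.19, ARSB, no longer called at 0.19, and PPT1, which changed sign to -0.01 and was called under neither.

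To rank single genes by level, CPM was divided by the length of their exons in kb, using exon lengths of GENCODE v29. This length counts every exon base of any basic transcript of the gene once. It can exceed the length of the transcript in use, so the places are approximate. In DMSO the members with the highest level per length were PSAP (153 CPM per kb), LAMP1 (67.5), MAN2B1 (58.7), GUSB (55.0) and CTSH (49.9), with CTSD in place 7 at 44.9. In ATRA the order was CTSD (1061 CPM per kb), PSAP (347), LIPA (292), CTSZ (213) and GUSB (112). CTSH moved from place 5 to place 21 of 40, and CTSS from place 19 to place 9. The lowest members per length were SMPD1 in DMSO (1.69 CPM per kb) and GALC in ATRA (5.36 CPM per kb).

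**Figure D3:**
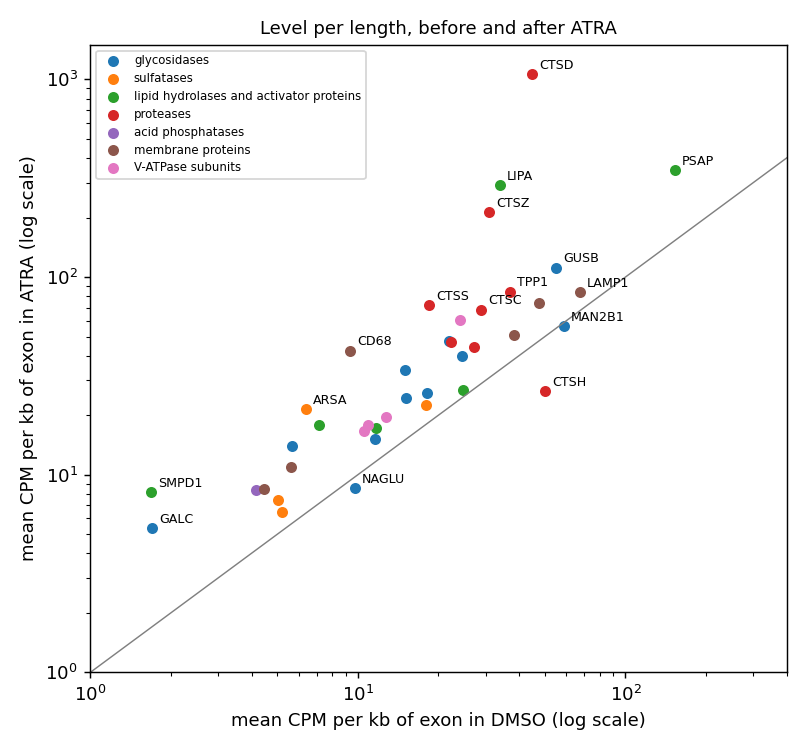
Mean CPM per kb of exon over the 3 DMSO libraries (x axis, log scale) against the mean over the 3 ATRA libraries (y axis, log scale) for 40 lysosomal genes coloured by role, with a line of equal level. CTSD, LIPA and CTSZ lie far above the line, and CTSH lies below it.

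The promoters of 32 of the 44 members were matched by symbol in a RefSeq table on GRCh38.p14, as 50 windows of 300 bases that run from 250 bases before to 50 bases after an annotated start. The palindrome CACGTG, the E-box core of the CLEAR element, was in 11 of these windows (22%), each of another gene, beside 7.26% of all 35116 windows and 9.20% of windows of genes tested. Genes differ in their number of windows. Counted by gene, CACGTG was in 11 of 32 members (34.4%), beside 8.77% of all genes with a window and 12.6% of genes tested that have one. It reads the same on both strands. The longer palindrome with GT before it and AC after it, a part of the CACGTG matches, was in 3 windows (GAA, GALNS and MCOLN1). That is 6% of the windows of members, beside 0.353% of all windows and 0.649% of windows of genes tested. Below are the windows of CTSD (chr11:1763878-1764177, minus strand), which had the largest rise, of MCOLN1 (chr19:7522374-7522673, plus strand) and GAA (chr17:80101331-80101630, plus strand), which hold the longer form, of LAMP1 (chr13:113296989-113297288, plus strand), which holds 6 copies of CACGTG and rose little, and of CTSH (chr15:78944997-78945296, minus strand), which fell. Capitals mark each CACGTG, and the strand shown is that of the gene.
CTSD: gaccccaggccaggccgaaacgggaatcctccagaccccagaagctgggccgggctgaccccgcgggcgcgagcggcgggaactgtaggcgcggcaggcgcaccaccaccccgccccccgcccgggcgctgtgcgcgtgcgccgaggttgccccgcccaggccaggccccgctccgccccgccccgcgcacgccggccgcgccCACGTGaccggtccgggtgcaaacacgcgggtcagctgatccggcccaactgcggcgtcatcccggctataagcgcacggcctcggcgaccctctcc
MCOLN1: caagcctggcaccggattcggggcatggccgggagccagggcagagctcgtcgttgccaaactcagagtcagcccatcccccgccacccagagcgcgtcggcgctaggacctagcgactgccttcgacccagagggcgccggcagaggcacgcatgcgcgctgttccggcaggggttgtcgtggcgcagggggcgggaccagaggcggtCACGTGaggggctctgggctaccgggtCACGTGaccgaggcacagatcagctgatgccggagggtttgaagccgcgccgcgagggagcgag
GAA: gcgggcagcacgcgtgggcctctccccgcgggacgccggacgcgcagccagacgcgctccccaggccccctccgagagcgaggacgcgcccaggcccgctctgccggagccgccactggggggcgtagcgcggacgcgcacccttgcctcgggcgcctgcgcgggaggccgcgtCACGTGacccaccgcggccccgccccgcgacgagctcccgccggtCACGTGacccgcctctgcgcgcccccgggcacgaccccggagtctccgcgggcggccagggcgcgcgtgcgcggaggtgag
LAMP1: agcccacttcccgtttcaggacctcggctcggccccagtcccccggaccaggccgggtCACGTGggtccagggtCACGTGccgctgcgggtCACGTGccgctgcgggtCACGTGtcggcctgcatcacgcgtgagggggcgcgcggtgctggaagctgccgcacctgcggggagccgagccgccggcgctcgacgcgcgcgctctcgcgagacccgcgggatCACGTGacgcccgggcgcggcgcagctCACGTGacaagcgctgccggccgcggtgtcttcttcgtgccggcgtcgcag
CTSH: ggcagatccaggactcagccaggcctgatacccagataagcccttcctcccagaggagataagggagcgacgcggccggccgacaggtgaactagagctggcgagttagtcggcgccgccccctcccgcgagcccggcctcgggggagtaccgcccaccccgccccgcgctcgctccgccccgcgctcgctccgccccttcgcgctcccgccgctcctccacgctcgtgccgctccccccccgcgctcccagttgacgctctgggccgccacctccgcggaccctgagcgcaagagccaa
In CTSD the CACGTG begins 47 bases before the start, and the copies in MCOLN1 begin 41 and 14 bases before it, the nearer being the longer form. Both copies in GAA, at 76 and 31 bases, are of the longer form, and those of LAMP1 begin between 192 bases and 1 base before the start. The CTSH window holds no CACGTG. Of the 11 members with CACGTG in a window, 9 were tested and all 9 were higher in ATRA (ARSB, ATP6V0D1, CD63, CTSA, CTSD, GAA, GALNS, LAMP1 and MCOLN1), with a median log2 fold change of 0.42. Of these, ARSB lost its call with total counts, as given above. Of 20 tested members whose windows lack CACGTG, 17 were higher and 1 was lower, with a median of 1.07, and LIPA, CTSZ, SMPD1 and CD68 were among these. A further 11 tested members had no matched window, of which 10 were higher and 1 was lower, with a median of 0.70. A match is a description of the letters, and no binding was measured.

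Other genes of the lysosome, listed with earlier results of these data known, numbered 122, of which 106 were in both tables. With ATRA, 65 of them rose and 24 fell (edgeR), 26 and 7 of them at least 2-fold, and the median was 0.44, beside 36 and 2 of 40 and a median of 0.94 for the members. The list with the smallest median was that of sorting and activation, where 6 of 12 rose and 3 fell (0.10). Within it SORT1, a sorting receptor, rose by 2.06 ± 0.14 and M6PR, a mannose-6-phosphate receptor, by 1.11 ± 0.05, while IGF2R, the other such receptor, rose by 0.57 ± 0.05. Of 16 further V-ATPase genes 13 rose and 3 fell, with TCIRG1, an a subunit of the membrane sector, at 220, 239 and 285 CPM in DMSO and 1007, 1043 and 1087 CPM in ATRA. Of 27 further membrane proteins and transporters 16 rose and 6 fell, among them LAPTM5, a lysosomal membrane protein of blood cells, which rose by 2.40 ± 0.06. LAMP3 rose by 3.24 ± 0.22 from a level of 0.976 ± 0.397 CPM (SD, n = 3).

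The remaining hydrolases were divided: 14 of 26 rose and 8 fell, with a median of 0.31. IFI30, the thiol reductase of antigen processing, rose by 4.58 ± 0.22, from at most 0.617 CPM to between 10.3 and 14.2 CPM. The cathepsins CTSW and CTSF fell. CTSW, known from cytotoxic lymphocytes, went from 109.7 ± 10.4 to 14.1 ± 1.52 CPM (SD, n = 3), a log2 fold change of -2.96 ± 0.06, and CTSF changed by -2.29 ± 0.18.

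Among the MiT/TFE factors and their control genes 12 of 18 rose and 2 fell, with a median of 0.48. TFEB stood at 4.54, 4.91 and 5.31 CPM in DMSO and 23.2, 24.2 and 26.5 CPM in ATRA, a log2 fold change of 2.32 ± 0.09 (edgeR adjusted p = 6.7e-08). TFE3 rose by 0.83 ± 0.06, and MITF was at or below 1.04 CPM in every library and did not pass the test (edgeR adjusted p = 0.225). LAMTOR1 and LAMTOR4, parts of the Ragulator complex that anchors mTORC1 signalling at lysosomes, rose by 1.39 ± 0.06 and 1.27 ± 0.05. Of 7 cystatin and serpin inhibitors 4 rose and 2 fell. CST7, which encodes cystatin F, an inhibitor that reaches lysosomes and acts on CTSC among others, went from 77.7, 76.5 and 73.7 CPM to 1.10, 1.74 and 1.36 CPM (-5.72 ± 0.11). Over the same libraries CTSC rose, as given above. SERPINB1, an inhibitor of neutrophil serine proteases, rose by 2.89 ± 0.08, and SERPINB6 by 5.72 ± 0.38 from at most 0.365 CPM.

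**Figure D4:**
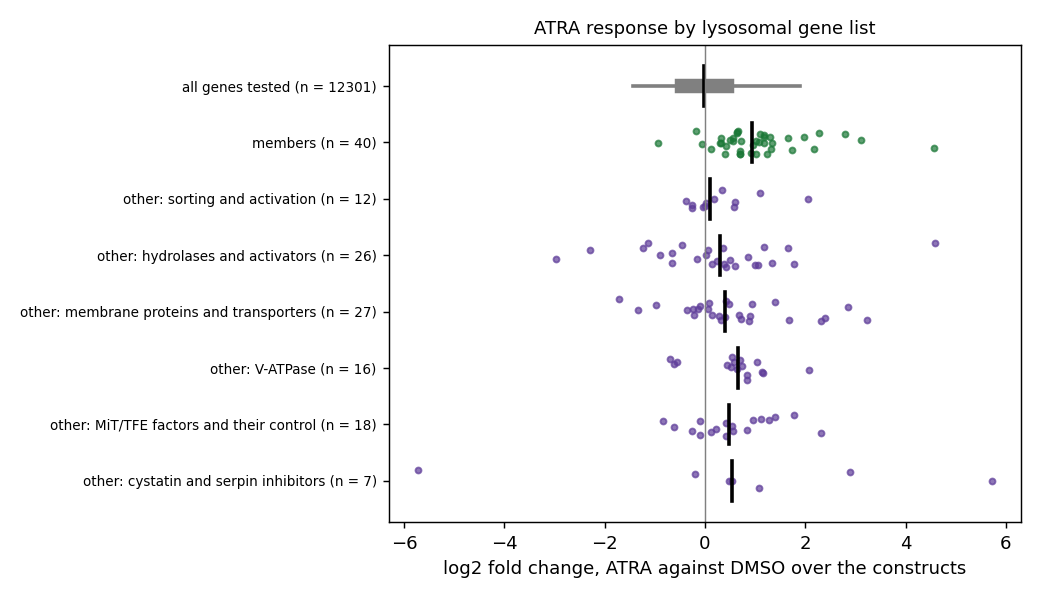
Log2 fold change with ATRA over the constructs (x axis) for the 40 members and 6 lists of other lysosomal genes (1 point per gene, spread vertically for visibility), with a black bar at each median. For all 12301 genes the thick grey bar spans the middle 50% and the thin bar 90%. The members lie mostly right of 0, while the other hydrolases spread to both sides.

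Markers of myeloid maturation and of other cell types moved in the same libraries, and their summed levels are given over the genes in both tables. Of 12 monocyte and macrophage markers, 6 were in both tables, of which 4 rose and 2 fell with ATRA, and their summed level was 361 to 388 CPM in DMSO and 348 to 360.3 CPM in ATRA. CD163, VCAN and C1QA were in neither table, and CD14, MRC1 and MARCO only in that of ATRA. Of 12 neutrophil granule genes, 6 were in both tables, of which 2 rose and 4 fell. Their summed levels were 10284 to 10550 CPM in DMSO and 5247 to 6957 CPM in ATRA. MPO made up most of these sums, at 9866 to 10044 CPM in DMSO and 4298 to 5764 CPM in ATRA. BPI rose from at most 1.37 CPM to between 576 and 668 CPM, and PRTN3 rose too, while MPO, MMP9, AZU1 and CTSG fell. LTF, CAMP, MMP8 and CEACAM8 were only in the table of ATRA, ELANE only in that of DMSO, and LCN2 in neither. Of 10 markers of eosinophils, basophils and mast cells 1 rose and 5 fell of 8 in both tables (1664 to 2526 CPM in DMSO, 791 to 1181 CPM in ATRA), and of 7 stem and progenitor markers 3 of 4 fell (555 to 625 CPM, then 238 to 311 CPM). Lymphoid markers split, with 2 of 5 higher and 2 lower (49.4 to 57.7 CPM, then 105 to 114 CPM), and erythroid and megakaryocyte markers had 1 of 2 higher and 1 lower (29.1 to 33.0 CPM, then 22.6 to 31.9 CPM), with HBB in neither table. The part of these shifts in the rise of the lysosomal genes was not tested.

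No lysosomal gene passed the test for knockdown of SMARCD2. With edgeR, 0 of 40 were called in DMSO, in ATRA or over the mean of both treatments, where 0%, 0.00813% and 0% of all genes tested were called. DESeq2 and limma-voom likewise called 0 members in these comparisons. At an unadjusted p under 0.05 there were 5 members in DMSO (GAA, GALC, LIPA, CTSS and ATP6V1H), 5 in ATRA (IDUA, ARSB, GM2A, CTSA and LAMP2) and 6 over the mean (GAA, GLA, LIPA, GM2A, CTSS and LAMP2). Of all genes, 7.06%, 10.8% and 8.15% were past the same p. Log2 differences ran from -0.31 (GALC) to 0.36 (IDS) in DMSO and from -0.33 (CTSH) to 0.47 (GM2A) in ATRA. The outermost bounds of the members' 95% intervals were -0.61 and 0.80 in DMSO and -0.67 and 0.78 in ATRA, so that every interval lay within a 2-fold change either way. The lone control library of each treatment is assumed to vary like the knockdown libraries.

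**Figure D5:**
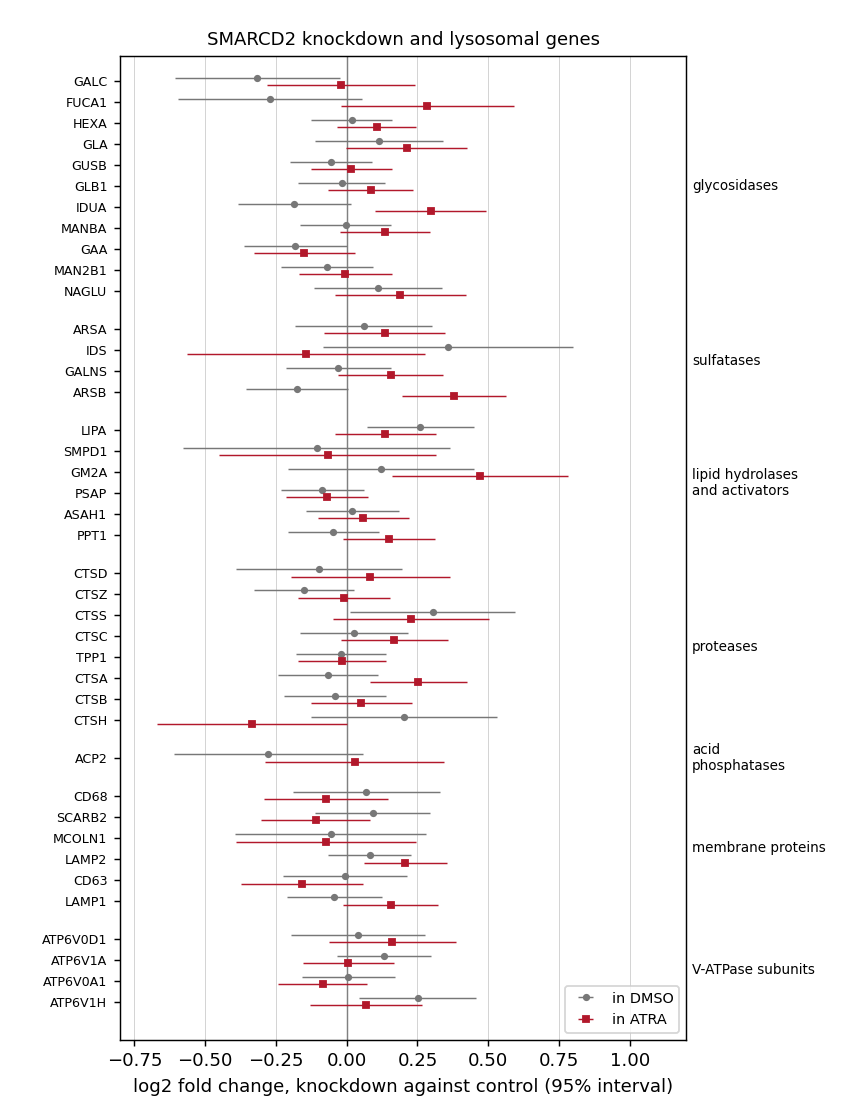
Log2 fold change of knockdown against control with its 95% interval (x axis) for 40 lysosomal genes (y axis, grouped by role), in DMSO (grey circles) and ATRA (red squares), from edgeR's fit of 4 groups. The points lie between -0.33 and 0.47, and every interval lies within 2-fold of no change.

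The median log2 difference of the members was -0.01 in DMSO and 0.08 in ATRA, beside 0.00 for all genes in each. Both hairpins lay above the control for 12 of 40 members in DMSO (30%, beside 35.01% of all genes) and for 23 in ATRA (57.5%, beside 39.2%). Both lay below it for 16 members in DMSO (40%, beside 34.9% of all genes) and 9 in ATRA (22.5%, beside 37.4%). All members of a treatment are read against the same single control library, so these counts share its error. The run mix also differed, with run 1 giving 54.6% and 53.1% of the control libraries and between 70.6% and 80.7% of the knockdown libraries, and its part in these differences was not tested.

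Among members with both hairpins on the same side of the control in ATRA, those farthest from 0 were GM2A, ARSB and CTSH. GM2A stood at 55.1 CPM in the control and 67.9 and 84.8 in the hairpins in ATRA, a log2 difference of 0.47 ± 0.13 with a 95% interval of 0.16 to 0.78 (edgeR adjusted p = 0.36). ARSB stood at 47.7 CPM against 60.0 and 64.0, a difference of 0.38 ± 0.08 (0.19 to 0.56). The ARSB hairpin libraries lay below the control in DMSO and above it in ATRA. CTSH stood at 66.9 CPM against 51.3 and 54.9 in ATRA, a difference of -0.33 ± 0.14 (-0.67 to 0.00). IDUA and FUCA1 followed at 0.30 ± 0.08 and 0.28 ± 0.13. With the construct as a block, a fit that takes the steady difference between the hairpins out of the spread, GM2A (0.46, adjusted p = 0.0084), ARSB (0.38, adjusted p = 0.0233) and CTSH (-0.33, adjusted p = 0.0496) passed edgeR's test. In that fit 2.83% of all genes were called. In DMSO the farthest by the same rule were IDS (0.36 ± 0.19), GALC (-0.31 ± 0.13), CTSS (0.30 ± 0.13), ACP2 (-0.28 ± 0.14) and FUCA1 (-0.27 ± 0.14). There the block called 0 members, beside 0.943% of all genes. Several of these values rest on 1 library: in DMSO the value of IDS was 0.59 without hairpin 1 but 0.12 without hairpin 2, that of CTSS 0.46 and 0.15, and that of ACP2 -0.16 and -0.37. For GM2A in ATRA, leaving out hairpin 1 gave 0.62 and leaving out hairpin 2 gave 0.30, and for FUCA1 0.15 and 0.40.

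The response to ATRA was compared between knockdown and control cells in the same fit. No member passed edgeR's test of that difference, where 0.0488% of all genes were called, and 5 members had an unadjusted p under 0.05 (IDUA, FUCA1, ARSB, CTSA and CTSH), beside 7.96% of all genes. DESeq2 and limma-voom called 0 members. FUCA1 rose by 0.94 on the log2 scale in the control and by 1.66 and 1.32 in the hairpins, a difference of 0.56 ± 0.19. ARSB changed by -0.06 in the control and by 0.42 and 0.56 in the hairpins, a difference of 0.55 ± 0.11 with a 95% interval of 0.30 to 0.81 (edgeR adjusted p = 0.30). For CTSH the fall was 0.54 ± 0.20 larger in the knockdown libraries on the log2 scale, a difference of -0.54. IDS rose by 0.91 in the control and by 0.53 and 0.30 in the hairpins, a difference of -0.50 ± 0.26. With the construct as a block ARSB (adjusted p = 0.0343) and CTSH (adjusted p = 0.0462) passed edgeR's test, where 1.05% of all genes did. Without hairpin 2 in DMSO the difference of CTSH was -0.35 and that of IDS -0.26. The intervals of 37 of the 40 members lay within a 2-fold difference in response.

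The hairpins differed from each other for 2 members. Over both treatments IDS was higher in hairpin 2 than in hairpin 1 by 0.36 ± 0.07 (edgeR adjusted p = 0.0042) and CTSH by 0.25 ± 0.07 (edgeR adjusted p = 0.046), where 1.30% of all genes were called higher and 0.732% lower. IDS stood at 38.5 CPM in hairpin 1 and 53.4 in hairpin 2 in DMSO, and at 55.7 and 65.8 in ATRA. CTSH stood at 99.3 and 129 CPM in DMSO and at 51.3 and 54.9 in ATRA. Just outside the threshold were CTSS (0.22), CTSD (-0.19) and GM2A (0.23). SMARCD2 itself was lower in hairpin 2 than in hairpin 1, with a log2 difference of -0.73 ± 0.07 (edgeR adjusted p = 3.0e-06). Depth of knockdown and other differences between the hairpins thus cannot be told apart. DESeq2 called neither IDS (adjusted p = 0.153) nor CTSH (adjusted p = 0.780).

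The authors' deposited table for ATRA gives 6 of the members an adjusted p under 0.05 for knockdown against control, where 4.42% of the genes with an adjusted p in it are called. In the authors' deposited table these are ARSB (log2 fold change 0.35, adjusted p = 0.0014), GM2A (0.39), CTSH (-0.30), LAMP2 (0.20), CTSC (0.16) and CTSS (0.20). The authors' deposited table for DMSO calls 0 members, with a smallest adjusted p among them of 0.068, where 1.27% of genes are called. SMARCD2 itself is called lower in both of the authors' deposited tables. The DMSO table lists it at -0.96 on the log2 scale (authors' adjusted p = 1.75e-21). The ATRA table lists it at -0.40 (authors' adjusted p = 0.0073). For GM2A, ARSB and CTSH the fold changes of the authors' deposited table are nearer 0 than those fitted here (0.47, 0.38 and -0.33), and how they were made is not stated. The normalized columns beside them are given per run, so that runs may have entered that test as samples.

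Reads that copies or overlapping genes share limit a few members. GUSB and IDS have near-identical pseudogene copies, and how reads from such copies were assigned is not stated in the labels. Exons of CTSA, ACP2, IDUA and GALNS overlap listed genes on the opposite strand, by 0.815% (GALNS with TRAPPC2L) to 10.4% (CTSA with NEURL2) of their bases for each partner, and those of GLB1 and MCOLN1 overlap one on the same strand. Whether the counting used strand is not stated either, so reads from such stretches cannot be told apart.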

How the data were processed

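Gene counts from RNA-seq of NB4 cells were used (6 libraries). Per the labels' protocols, RNA was purified on GeneJET columns and libraries were made with a NEBNext Ultra kit. The submitters' processing notes name bcl2fastq, STAR, Picard 2.5.0, DESeq2 and the build GRCh37.p13, without roles. Read assignment and strand use are not given in the sources used here. For each treatment the authors deposited a table (12752 genes for DMSO, 12838 for ATRA) with raw counts in 2 columns per library, taken as runs. Knockdown against control is given there too, per the file headers, as the authors' log2 fold change. Their p-value and adjusted p-value stand in the same deposited tables. The 12 normalized columns were not used. Scarce genes are absent from each table, by a filter that is not stated.

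The counts of the runs were summed per library. Genes in both tables (12301) were filtered with filterByExpr, scaled with TMM and tested with edgeR 4.0.16 (quasi-likelihood, R 4.3.3), with Benjamini-Hochberg adjustment over all genes and a threshold of 0.05. ATRA and mean knockdown effects came from a fit of knockdown state and treatment (3 residual degrees of freedom). Effects within a treatment and their difference came from 4 groups (2 residual degrees of freedom, from the hairpins). The comparison of the hairpins had treatment as a covariate and 1 residual degree of freedom. SE is the absolute log2 fold change over the square root of F. P-values measure only the spread between these libraries. Alternatives were DESeq2 1.42.0, limma 3.58.1 (voom), other scalings, no filter, single runs, each library left out, and the construct as a replicate block. The fits were also run on simulated counts with known changes. For knockdown in DMSO they recovered 83% of 2-fold changes, and in ATRA 80%. Of changes of 0.5 on the log2 scale they recovered 66% in DMSO and 47% in ATRA. For the difference in ATRA response they recovered 75% of 2-fold changes and 24% of those of 0.5. The simulated counts were drawn independently for each library, without differences between constructs or cultures. Recovery in the measured libraries is thus not given by them. Python 3.11.15, pandas 2.3.3 and matplotlib 3.10.9 were used for tables and plots.

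The pairing by construct comes from the labels, which give the same hairpin in both treatments but not whether the libraries share a culture. Across 9467 genes averaging 10 CPM or more, a construct's deviations in DMSO and ATRA had r = 0.08 (control), 0.19 (hairpin 1) and 0.21 (hairpin 2). The block leaves 1 residual degree of freedom, and its p-values for knockdown can understate the error, since the spread between constructs is removed.

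The members and gene lists were chosen with earlier results of these data known. Members named for knockdown are the 5 farthest from 0 among those with both hairpins on the same side of the control, and for the hairpins those called; for other lysosomal genes, the 4 largest changes of a list were eligible, with TFEB, TFE3 and MITF named in any case. Some genes of the lists are not reported here by name. Promoter windows are from RefSeq (GRCh38.p14) and exon lengths and overlaps from GENCODE v29 (GRCh38), matched by symbol. No coordinates were converted.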

Additional observations from a re-analysis of the deposited data

How the results depend on the processing

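With ATRA, 35 to 37 of 40 members were called higher over the alternatives run, and their median lay between 0.815 (total counts) and 0.96 (DESeq2). The members called lower were 3 with total counts, 1 with DESeq2 and with run 2 only, and between 1 and 2 when a library was left out, where NAGLU lost its call. PPT1 changed sign with total counts (-0.0111) and was called higher, at 0.19 and 0.18, without the control in DMSO or in ATRA. The cause was not tested.

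For knockdown, no alternative without the replicate block called a member. Over all genes, DESeq2 called 20 higher and 28 lower over the mean of both treatments, 32 and 6 in DMSO, 17 and 35 in ATRA, and 1 and 47 for the difference in response. With the replicate block these counts were 8 and 2, 85 and 31, 149 and 199, and 16 and 113. The block called 2 members higher and 1 lower in ATRA, and 1 and 1 for the difference in response. It changed no other call of a named member. With run 2 only, counts were 1 lower over the mean, 2 higher and 1 lower in DMSO, and 7 lower in ATRA. Total counts gave 1 lower over the mean, and limma-voom gave 2 lower for the difference in response. With a library left out, counts ran from 0 to 1 lower over the mean, from 0 to 20 higher and 0 to 1 lower in DMSO (20 and 1 without hairpin 1 in DMSO), from 0 to 1 lower in ATRA, and from 1 to 2 lower for the difference. The median of the members with knockdown in DMSO lay between -0.02 and 0.02 and has no stable sign.

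Between the hairpins, DESeq2 size factors (RLE) in edgeR gave 244 genes higher and 138 lower (members 4 and 1), limma-voom 266 and 175 (members 4 higher), and DESeq2 29 and 20 (members 0). No library could be left out there, since no residual degrees of freedom remain, nor could the lone control of a contrast within a treatment.

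With 1 control library per treatment, knockdown differences smaller than the intervals given cannot be resolved, and the counts of LGMN and ACP5 are too few to compare.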
